A study of Homo sapiens with 12 samples.

Results

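The RNA of a control line of LNCaP cells, an established human prostate cancer line that depends on androgen, was compared between full medium and hormone starvation. The comparison took 4 of the 12 RNA-seq samples of the series, chosen by their titles, namely control FM replicates 1 and 2 and control EtOH replicates 1 and 2. Control FM cells grew in RPMI 1640 medium with fetal bovine serum. Control EtOH cells were starved for 72 h in medium whose serum had been stripped with charcoal and dextran, and then received ethanol, the vehicle for the androgen, for 16 h. The labels describe no starvation and no ethanol for FM, and the study's methods add that its starvation medium lacked phenol red, so these differences cannot be told apart from that of the serum. Both groups share the genotype labelled Control, a vector control made beside the TALEN line that lacks Bag-1L, a cochaperone made from the BAG1 gene. Lines made in this way were grown from single clones, and a clone can differ from the parental cells. As reference groups the same line after starvation and 10 nM dihydrotestosterone (DHT, a potent androgen) for 16 h, and the Bag-1L knockout line (KO) in FM and in EtOH, are given where stated, each with 2 replicates.

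Serum carries steroid hormones, growth factors and lipids, and charcoal removes mainly small fat-soluble molecules such as steroids while leaving most proteins. Androgens such as testosterone and DHT control genes of prostate secretion and metabolism. Cells that commit to division first express genes of DNA replication under E2F transcription factors, and later genes of mitosis, many of which carry a promoter element called CHR next to CCAAT boxes. Full medium supplies several of these inputs together, whereas DHT supplies a single hormone, and values for both are given side by side below.

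Gene counts totalled 23084334 to 26510205 per sample in the 4 samples. Levels are given as normalized counts, that is, read counts divided by a size factor for depth, and a count of 3, taken as the floor of detection, corresponds to between 2.86 and 3.31 normalized counts there. The luminal markers of LNCaP cells were abundant, with KRT8 at 12504 to 17608 normalized counts, FOXA1 at 8479 to 9603 and HOXB13 at 6040 to 6724. The basal markers KRT5 and TP63 lay at or under 3.8 normalized counts in these samples, and the blood marker PTPRC and the muscle marker DES did not reach 10 counts summed over the 12 samples. BAG1 stood at 2117 and 1968 normalized counts in FM and at 1702 and 2703 in EtOH (log2 fold change -0.11, standard error 0.18, adjusted p = 0.689). Mitochondrial genes took 2.50% and 3.10% of the counts in FM and 4.35% and 3.56% in EtOH, and their part in the results was not tested.

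The starved replicates stood apart from each other. Their median absolute log2 difference was 0.238 over 11374 genes, and 10.3% of these genes differed by at least 1.5-fold between them, against 0.084 and 0.4% for the FM replicates. The difference between FM and EtOH also moved with the GC content of the gene. In the tenth of genes with the lowest GC content (median 38.1%) FM exceeded EtOH replicate 1 by a median log2 of 0.233 and EtOH replicate 2 by 0.351, and in the tenth with the highest (median 63.5%) the medians were -0.248 and -0.617. In KO the corresponding medians lay between 0.055 and 0.084 and between -0.092 and -0.034. The plot of this dependence by GC decile shows the steeper slope against EtOH replicate 2. The part of GC content in single results was not tested beyond a fit with GC-dependent offsets, and values without single replicates are given below for results that depended on them.

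**Figure D1:**
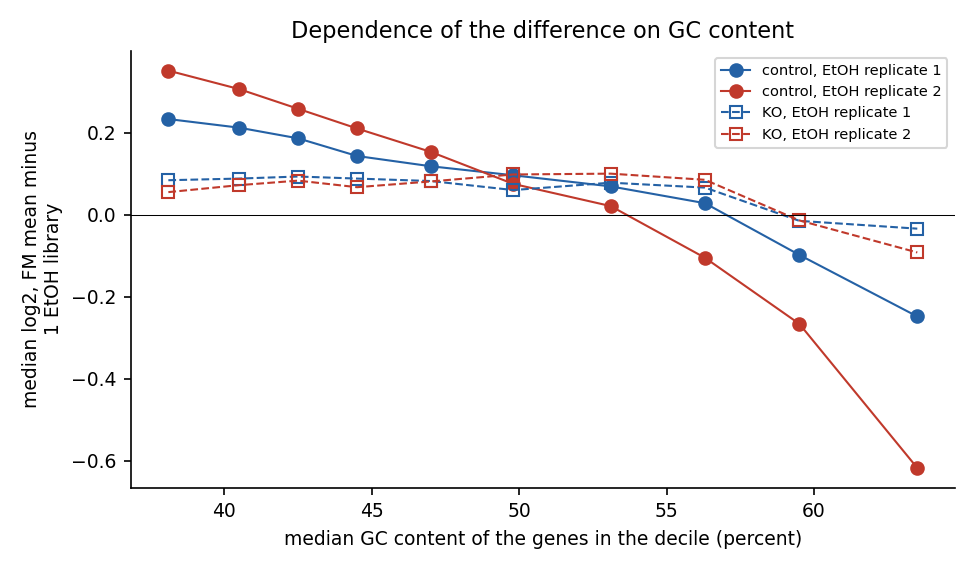
Median log2 difference between the FM mean and a single EtOH library (vertical axis) in 10 groups of genes ordered by GC content (horizontal axis, percent), for control (filled circles, solid lines) and KO (open squares, dashed lines). The control lines fall from 0.233 and 0.351 to -0.248 and -0.617, while the KO lines start at 0.084 and 0.055 and end at -0.034 and -0.092.

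Full medium changed genes in both directions. The call required an adjusted p (DESeq2, Benjamini-Hochberg) no higher than 0.05 together with a change of 1.5-fold or more. Of 18549 genes tested, 3956 (21.3%) were called, with 1820 (9.81%) higher and 2136 (11.5%) lower in FM. The median size of a called change was 0.973 on the log2 scale, and 503 called genes changed more than 4-fold, 212 of them upward and 291 downward. Over all genes tested the median log2 change was -0.01. Leaving out EtOH replicate 2 gave 3094 calls, leaving out EtOH replicate 1 gave 4712, and offsets for GC content gave 3446, of which 1343 were higher and 2103 lower.

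**Figure D2:**
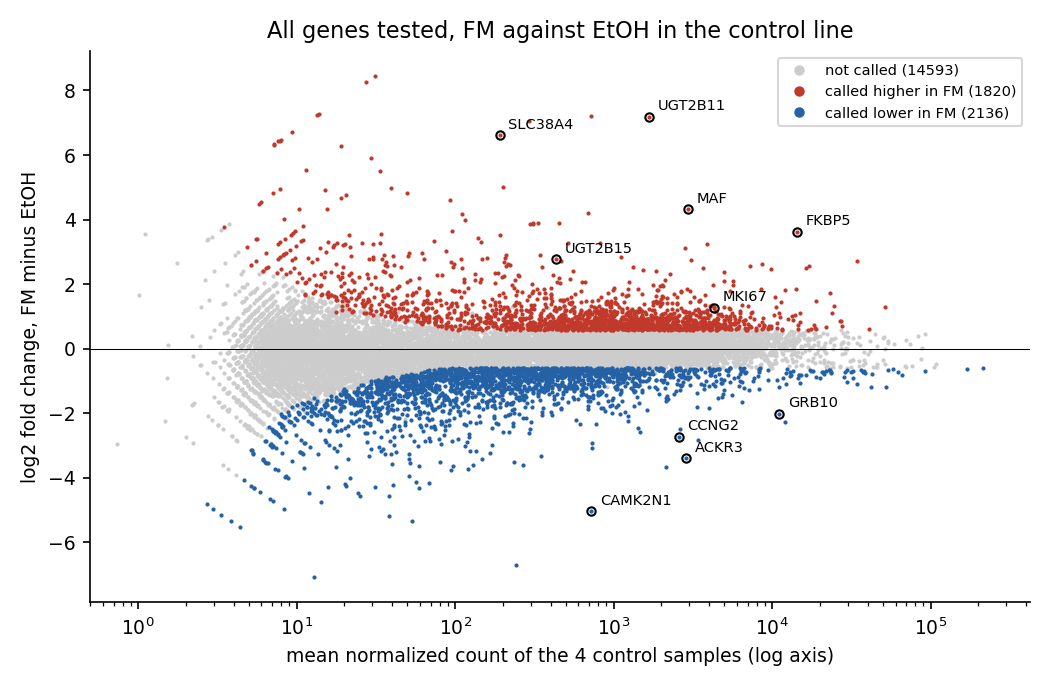
Log2 fold change (FM minus EtOH, vertical axis) against the mean normalized count of the 4 control samples (horizontal log axis) for the 18549 genes tested. Red points are the 1820 genes called higher in FM, blue points the 2136 called lower, and circles mark named genes, from UGT2B11 at 7.19 to CAMK2N1 at -5.03.

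Among genes with a mean of at least 100 normalized counts, the steepest rises were led by genes of the UGT2B family of enzymes. Several members of this family couple steroids to glucuronic acid for removal. UGT2B11 (chromosome 4, 70065669 to 70080466, GRCh37) belongs to it. UGT2B11 had 3105 and 3574 normalized counts in FM and 23.8 and 21.9 in EtOH (log2 7.19, standard error 0.25, adjusted p = 2.57e-175). UGT2B28 (chromosome 4, 70146193 to 70160768) had 1263 and 1586 in FM and 10.5 and 9.0 in EtOH (log2 7.20, standard error 0.36). The groups lay far apart for both genes, and UGT2B28 was close to the floor in the starved libraries. These paralogs share sequence, since 36.1% of the 50-base words of UGT2B11 and 34.3% of those of UGT2B28 also occur in other genes, so their reads could be lost in counting.

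TRGC1, the gamma T cell receptor constant segment whose locus also gives an androgen-induced prostate transcript, rose from 4.8 and 4.0 to 512 and 652 normalized counts, and 34.2% of its words are shared. SLC38A4, an amino acid transporter, rose from 3.8 and 4.0, next to the floor, to 307 and 449 (log2 6.60, standard error 0.55). A transcription factor gene, MAF, went from 279 and 282 to 5148 and 6151 (log2 4.33, standard error 0.13). The glucose transporter gene SLC2A3 (log2 4.16), CCDC141 (5.01) and LAMA1 (3.90), which encodes a laminin chain, rose as well, and DOCK8, which encodes a guanine nucleotide exchange factor, went from 18.1 and 9.0 to 210 and 225 normalized counts. Genes in this group and among the falls below were chosen to have groups that do not overlap, so their separation is no support for them. Separation is no support either for genes picked further below as the largest called changes of a list.

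Among the steepest falls at the same minimum mean, CAMK2N1, which encodes an inhibitor of the kinase CaMKII, had 43.1 and 42.8 normalized counts in FM and 1390 and 1419 in EtOH (log2 -5.03, standard error 0.20, adjusted p = 1.31e-138). ACKR3, an atypical receptor for the chemokine CXCL12, had 525 and 475 in FM and 5221 and 5297 in EtOH (log2 -3.40, standard error 0.11). The vitamin D-binding protein gene GC had 314 and 322 in FM and 3908 and 4059 in EtOH (log2 -3.65, standard error 0.12). In each of these the starved samples were the high ones and the replicates lay close together. GLYATL3 had 7.7 and 1.9 normalized counts in FM, the latter under the floor, against 531 and 430 in EtOH (log2 -6.69, standard error 0.51). RET, a receptor tyrosine kinase, fell by 3.42 on the log2 scale, PLPPR1 by 3.50, the ceramide enzyme gene DEGS2 by 3.60, MAB21L4 by 3.71 and the ubiquitin ligase adaptor gene FBXO2 by 3.32. The starved replicates were further apart in DEGS2 (169 and 310 normalized counts) and FBXO2 (496 and 763). With GC offsets the log2 changes of these 2 genes were -3.07 and -2.80. TGM3 (log2 -3.61) is uncertain, because 94.7% of its words occur in other annotated genes.

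Genes known to be induced by androgen mostly rose. For this list and those below, the shares over all genes tested in FM were 9.81% called higher and 11.5% called lower. Of 44 such genes, 41 were tested, 31 rose and 2 fell, with a median log2 change of 1.37. FKBP5 (chromosome 6, 35541362 to 35696360), a cochaperone of steroid receptors and a classical androgen target, had 25795 and 27142 normalized counts in FM against 2247 and 2037 in EtOH (log2 3.63, standard error 0.10). The groups did not overlap and the replicates of each differed by little. KLK2, a secreted kallikrein protease, had 16028 and 15391 against 4467 and 5907 (log2 1.60, standard error 0.12), and TMPRSS2, a membrane protease, had 3746 and 3757 against 1156 and 1321 (log2 1.60, standard error 0.12). KLK3, which encodes prostate-specific antigen, rose least of these, from 5354 and 7094 to 10398 and 10173 (log2 0.72, standard error 0.13, adjusted p = 4.86e-07). Without EtOH replicate 1 its log2 change was 0.54, under the fold threshold.

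DHT values for the same genes came from the same starved samples as reference, so the comparisons are given side by side and not as independent evidence. DHT against EtOH called 2001 of 17535 genes tested (11.4%) and raised 36 of the 41 androgen-induced genes, with a median log2 of 1.59. FM and DHT levels were then compared directly, a test that called 3137 of 16521 genes (19.0%). Of the 41 genes 10 were lower and 3 were higher in FM than in DHT. FKBP5 had 36045 and 33569 normalized counts in DHT, and its difference of -0.40 (log2, FM minus DHT) was under the fold threshold. PLPP1, a lipid phosphatase gene chosen after its values were seen, had 4851 and 5586 in FM, 4137 and 4540 in EtOH and 10755 and 11119 in DHT. Its log2 change was 1.33 with DHT and 0.27 in FM, the latter not called, and the FM level was lower than the DHT level by 1.07. ACP3, prostatic acid phosphatase, fell in FM despite its place on the list (953 and 825 to 299 and 303, log2 -1.56) and fell with DHT as well (-1.93).

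Genes listed as repressed by androgen, in a list chosen with earlier results of these data known, changed in both directions. Of 25 listed, 24 were tested, 7 rose and 9 fell, with a median log2 of -0.16 that ranged from -0.41 without FM replicate 2 and -0.38 without EtOH replicate 2 to -0.25 without FM replicate 1 and -0.10 without EtOH replicate 1, and was -0.32 with GC offsets. With DHT 5 rose and 13 fell (median -0.96). CAMK2N1, ACKR3 and PLPPR1, described above, were among those that fell. Of the 7 that rose, 6 were UGT2B enzymes. Among these, UGT2B11 and UGT2B28 were raised by DHT in this line (log2 4.95 and 5.08), so they did not behave as androgen-repressed genes here. The rises of this list therefore came mostly from that family.

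The UGT2B enzymes fell into separate patterns with DHT. All 7 members tested were called higher in FM, a family examined after its values were seen. UGT2B7, with 15.5 and 30.2 normalized counts in FM and 6.7 and 5.0 in EtOH (log2 1.97, adjusted p = 0.0283), lost its call without EtOH replicate 1 (adjusted p = 0.0728), without EtOH replicate 2 (0.153), with GC offsets (0.0585) and in a fit of only the samples compared (0.0597). UGT2B15 (chromosome 4, 69512315 to 69536370), a major glucuronidating enzyme for DHT in prostate, had 715 and 801 normalized counts in FM, 101 and 121 in EtOH and 81.8 and 101 in DHT. UGT2B17 (chromosome 4, 69402891 to 69442131), its close paralog, had 421 and 415, 93.3 and 81.6, and 45.4 and 74.6. For both genes FM was high and the starved and DHT samples were low, with log2 changes of 2.77 and 2.26 for FM against EtOH and of 3.05 and 2.80 for FM against DHT, all called. DHT against EtOH gave -0.28 (adjusted p = 0.387) and -0.54 (adjusted p = 0.0948), neither called. UGT2B11 and UGT2B28 in contrast had 675 and 737 and 301 and 355 normalized counts in DHT, between EtOH and FM, so that DHT raised them by 4.95 and 5.08. UGT2B4, a bile acid and steroid enzyme, was similar, with a log2 change of 3.88 in FM and 2.95 with DHT. Of the words of UGT2B15 and UGT2B17 27.1% and 22.1% are shared with other genes.

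**Figure D3:**
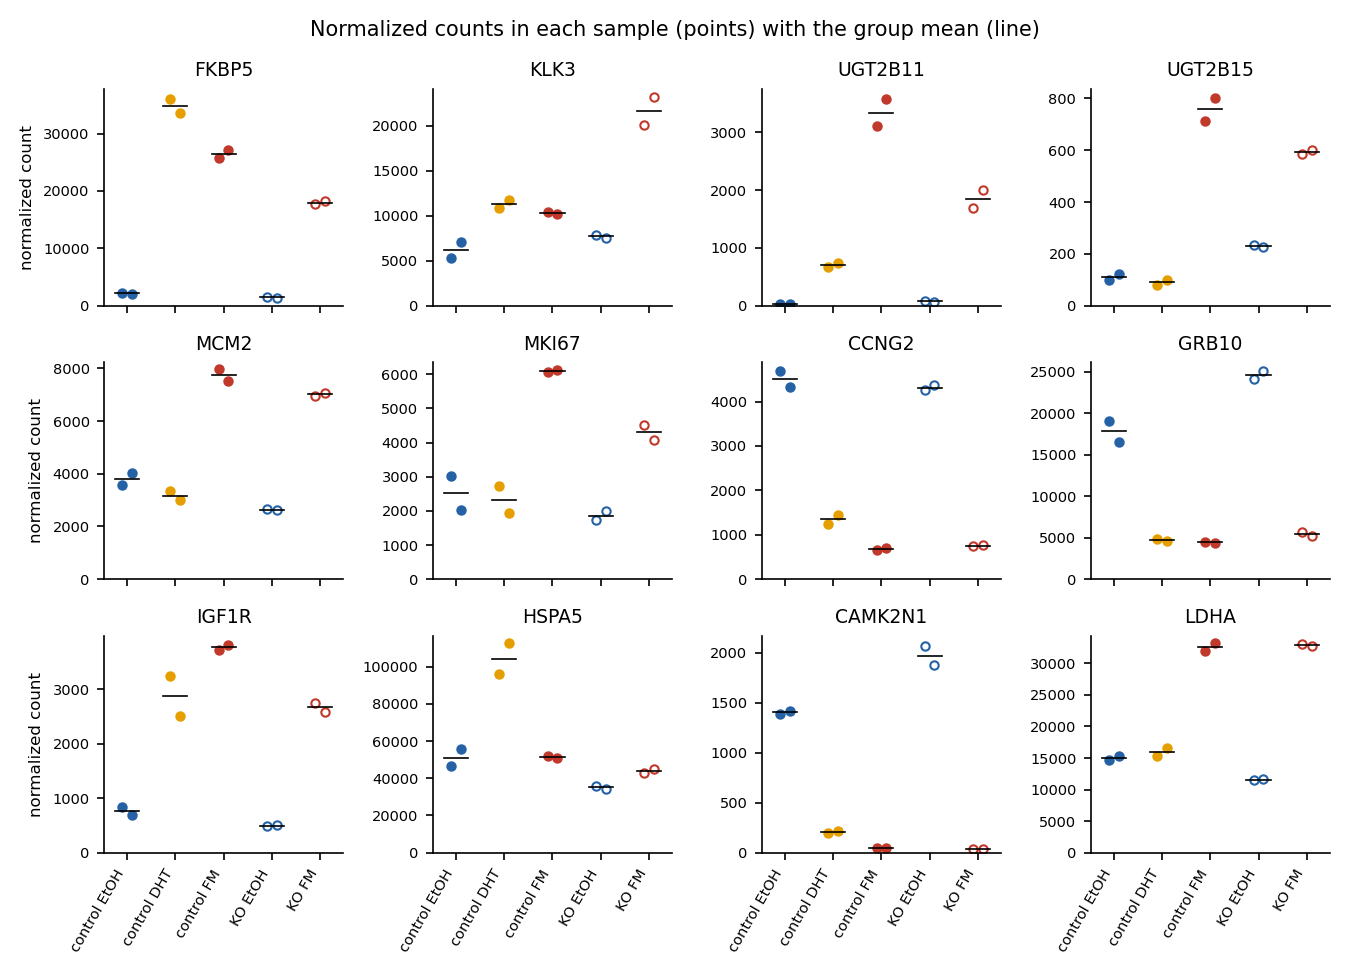
Normalized counts (vertical axes from 0) of 12 genes in each sample of 5 groups, with points for single samples and a line for the group mean. FKBP5 is high in both FM and DHT, MCM2, MKI67, UGT2B15 and LDHA are high in FM and not in DHT, and HSPA5 is high in DHT and not in FM.

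The replication and mitosis genes rose as groups in full medium, and the promoters of some of the risen genes are shown to let the reader see the elements by which these genes are known. Promoter windows from 250 bases before to 50 bases after the annotated start were taken from RefSeq (GRCh38.p14). In the first set capitals mark E2F words, searched on both strands as TTTCGCGC, TTTGGCGC, TTTCCCGC and TTTGCCGC, in MCM2 (chr3:127598161-127598460, plus strand, words overlapping each other), E2F1 (chr20:33686336-33686635, minus strand) and CLSPN (chr1:35769929-35770228, minus strand).
MCM2: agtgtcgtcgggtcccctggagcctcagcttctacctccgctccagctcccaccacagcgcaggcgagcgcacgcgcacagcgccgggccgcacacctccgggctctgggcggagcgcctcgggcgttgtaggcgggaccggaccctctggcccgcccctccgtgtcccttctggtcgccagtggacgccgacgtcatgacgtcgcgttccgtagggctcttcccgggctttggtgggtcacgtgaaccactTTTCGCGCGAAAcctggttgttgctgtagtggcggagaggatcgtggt
E2F1: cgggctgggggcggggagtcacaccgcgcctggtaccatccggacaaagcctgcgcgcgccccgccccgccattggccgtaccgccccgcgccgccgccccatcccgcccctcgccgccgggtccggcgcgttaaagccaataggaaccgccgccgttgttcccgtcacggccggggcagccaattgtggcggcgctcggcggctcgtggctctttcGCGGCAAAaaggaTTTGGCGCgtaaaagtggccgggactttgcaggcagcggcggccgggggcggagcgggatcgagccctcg
CLSPN: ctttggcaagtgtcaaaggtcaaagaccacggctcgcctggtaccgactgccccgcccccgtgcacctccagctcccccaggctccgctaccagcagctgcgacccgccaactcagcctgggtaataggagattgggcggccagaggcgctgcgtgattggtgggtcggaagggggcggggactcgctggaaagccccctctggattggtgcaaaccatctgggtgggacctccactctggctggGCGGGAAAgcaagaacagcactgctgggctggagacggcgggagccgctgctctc

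In the second set capitals mark the CHR word TTTGAA and the CCAAT word on both strands, in PLK1 (chr16:23678639-23678938, plus strand), MKI67 (chr10:128126374-128126673, minus strand, where a CHR and a CCAAT word overlap) and HMMR (chr5:163460382-163460681, plus strand, where neighbouring CCAAT words overlap).
PLK1: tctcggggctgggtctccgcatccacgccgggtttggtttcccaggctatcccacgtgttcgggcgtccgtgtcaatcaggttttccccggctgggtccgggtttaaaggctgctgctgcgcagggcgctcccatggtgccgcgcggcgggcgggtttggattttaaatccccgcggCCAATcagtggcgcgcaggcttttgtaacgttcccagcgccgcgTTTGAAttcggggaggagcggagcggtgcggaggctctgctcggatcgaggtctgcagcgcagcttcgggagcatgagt
MKI67: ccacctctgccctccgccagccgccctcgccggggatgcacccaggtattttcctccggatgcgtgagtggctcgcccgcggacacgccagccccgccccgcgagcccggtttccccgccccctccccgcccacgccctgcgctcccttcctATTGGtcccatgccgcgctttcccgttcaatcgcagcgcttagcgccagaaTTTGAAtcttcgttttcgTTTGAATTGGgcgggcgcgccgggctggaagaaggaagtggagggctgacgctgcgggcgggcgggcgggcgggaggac
HMMR: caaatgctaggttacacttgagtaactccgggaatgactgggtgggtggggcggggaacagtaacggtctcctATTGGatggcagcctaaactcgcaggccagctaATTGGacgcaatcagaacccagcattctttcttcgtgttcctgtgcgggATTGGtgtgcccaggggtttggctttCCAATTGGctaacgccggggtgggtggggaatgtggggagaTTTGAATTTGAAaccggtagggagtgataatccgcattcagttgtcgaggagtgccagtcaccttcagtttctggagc

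The words were counted by gene, over all promoter entries of a gene. An E2F word stood in the promoters of 53.7% of the called G1/S members (22 of 41 with a promoter in the table), of 8.7% of the called G2/M members (4 of 46) and of 4.0% of all 27305 genes of the table. The CHR word stood in 4.9%, 78.3% and 18.2% of them in the same order, and the CCAAT word in 56.1%, 71.7% and 39.7%. Over the genes tested with a promoter entry (12184) the shares were 6.2% for the E2F words, 13.7% for CHR and 42.6% for CCAAT. Among all listed members with a promoter in the table, called or not, an E2F word stood in 53.1% of the G1/S genes (26 of 49) and the CHR word in 73.6% of the G2/M genes (39 of 53), close to the shares in the called members. These matches describe the letters of the windows and were not tested as binding sites.

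Genes of the G1/S transition and DNA replication rose in 49 of 57 tested cases and fell in none, with a median log2 of 1.04. MCM2, a subunit of the replicative helicase, had 7962 and 7542 normalized counts in FM and 3589 and 4043 in EtOH (log2 1.02, standard error 0.11, adjusted p = 8.95e-20). RRM2, the small subunit of ribonucleotide reductase, had 8175 and 8661 against 2544 and 2293 (log2 1.80, standard error 0.11). Both FM samples were higher than both starved ones in each gene. The replication factor gene MCM10 went from 582 and 486 to 1911 and 1914 (log2 1.84), the checkpoint adaptor gene CLSPN from 310 and 176 to 1028 and 1027 (log2 2.08), and E2F8, an atypical E2F factor gene, rose by 1.86. E2F1, an activating E2F factor, had 2244 and 2066 in FM and 813 and 1167 in EtOH (log2 1.12). Without EtOH replicate 1 and replicate 2 in turn, the log2 change was 0.94 and 1.11 for MCM2 and 0.89 and 1.41 for E2F1.

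Mitotic genes rose in 53 of 61 tested cases and fell in none, with a median log2 of 0.91. MKI67, the proliferation antigen Ki-67, had 6061 and 6125 normalized counts in FM and 3033 and 2010 in EtOH (log2 1.27, standard error 0.19, adjusted p = 1.6e-10). CDK1, the mitotic kinase, had 14415 and 15485 against 5594 and 6735 (log2 1.28, standard error 0.13), and PLK1, another mitotic kinase, had 4274 and 3957 against 2194 and 2281 (log2 0.88, standard error 0.11). HMMR, SMC4 and ANLN, which act in the spindle, in chromosome condensation and in cytokinesis, rose by 1.45, 1.49 and 1.44. For these genes both FM replicates were higher than both starved ones. CCNB1, the mitotic cyclin B1, was closer to the threshold (log2 0.67), and its change without EtOH replicate 1 was 0.54, under it. TOP2A, a topoisomerase gene, had a log2 change of 0.57 and was not called, but reached 0.70 and was called without EtOH replicate 1. With GC offsets 43 members rose, without EtOH replicate 1 49, and without EtOH replicate 2 60. In bulk RNA more cells in cycle and more transcript per cycling cell cannot be told apart.

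With DHT for 16 h these groups stayed near the starved level. DHT against EtOH raised 1 and lowered 2 of the 57 G1/S genes (median log2 -0.09) and called none of the 61 mitotic genes (median -0.17). In the direct test FM exceeded DHT in 49 of the 57 and 58 of the 61 genes. MKI67 had 2721 and 1923 normalized counts in DHT, within the range of the starved samples or just below it. The FM and DHT cultures differ in their length of hormone exposure as well as in serum, and the part of each was not tested.

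Genes of cell cycle arrest and FOXO targets fell more often than they rose, with 13 falls and 2 rises among 30 tested (median log2 -0.37). CCNG2, an unconventional cyclin made in quiescent cells, had 655 and 708 normalized counts in FM and 4680 and 4319 in EtOH (log2 -2.72, standard error 0.12, adjusted p = 9.35e-118). SESN3, a FOXO target that restrains mTORC1, had 4104 and 4258 against 23770 and 16354 (log2 -2.26, standard error 0.16). The starved samples were high in both genes, and DHT lay between, with log2 changes of -1.74 and -1.76 against EtOH. YPEL2 fell by 1.59. The Cdk inhibitors CDKN1A (p21) and CDKN1B (p27) had log2 changes of -0.29 each and were not called, and CDKN1A rose with DHT by 0.83.

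Ribosome biogenesis genes rose in 13 of 39 tested cases and fell in none, with a median log2 of 0.48. UTP20, a component of the small-subunit processome, had 3461 and 3537 normalized counts in FM and 1879 and 1482 in EtOH (log2 1.06, standard error 0.14). HEATR1 (log2 1.02) and UTP4 (0.96), which belong to the same machinery, rose as well. NOP56, a snoRNP core gene, had a log2 change of 0.48 and was not called. NCL, nucleolin, stood at the threshold with 0.60 and was lost without EtOH replicate 1 (0.48). DHT raised 1 of the 39.

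**Figure D4:**
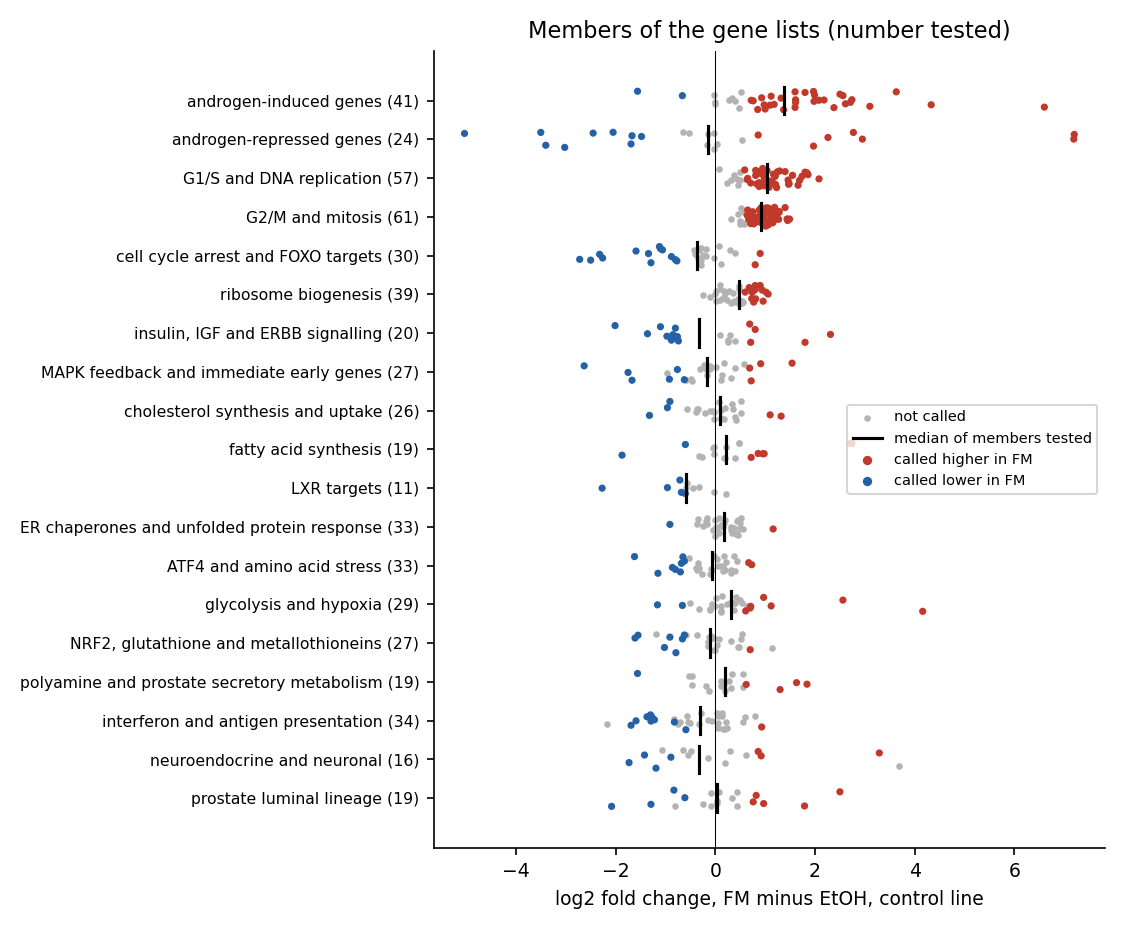
Log2 fold changes (FM minus EtOH, horizontal axis) of the tested members of 19 gene lists, 1 point per gene, red where called higher, blue where called lower and grey where not called, with a black bar at the list median. The G1/S and mitosis lists lie almost wholly to the right of 0, the androgen-repressed list spans from -5.03 to 7.20, and the cholesterol and ER chaperone lists cluster around 0.

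Signalling genes of the insulin, IGF and ERBB pathways changed in both directions, with 5 rises and 10 falls among 20 tested (median log2 -0.32, and -0.17 without EtOH replicate 1), and 3 rises without EtOH replicate 2. IGF1R, the receptor for IGF-1, had 3716 and 3808 normalized counts in FM and 830 and 687 in EtOH (log2 2.31, standard error 0.14). GRB10, an adaptor that dampens insulin and IGF receptors, went the other way, with 4466 and 4396 against 19095 and 16532 (log2 -2.01, standard error 0.10). Neither gene overlapped between the groups. DHT moved both in the same direction as FM, by 1.92 and -1.92. IRS2, a receptor substrate, rose by 0.80 in FM and by 2.10 with DHT, and IGFBP5, an IGF-binding protein gene, fell by 1.36 in FM.

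MAPK feedback and immediate early genes gave 4 rises and 6 falls among 27 tested. EGR1 and FOS, which serum induces briefly in quiescent cells, stood at 27.6 and 19.5 and at 32.0 and 26.3 normalized counts in FM, against 27.6 and 24.9 and 32.4 and 35.8 in EtOH, and were not called. DUSP5, a phosphatase that acts on ERK, fell from 184 and 236 to 23.2 and 43.8 (log2 -2.63), and JUND, an AP-1 subunit gene, fell by 1.75. ERRFI1, a feedback inhibitor of the EGF receptor, rose by 1.54. A list of SRF and YAP targets also held WWTR1, the gene for the coactivator TAZ, and 4 of its 22 tested members rose and 3 fell. WWTR1 rose by 2.30 and the actin gene ACTA2 fell by 1.88. Without EtOH replicate 2 this list had 2 rises and 4 falls.

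Lipid genes differed between FM and DHT. Of 26 genes of cholesterol synthesis and uptake, 2 rose and 3 fell in FM (median log2 0.09, and 0.01 to 0.07 when 1 of the 4 replicates was left out), while DHT raised 14 and lowered none (median 0.63), and 13 of 25 were lower in FM than in DHT. The FM shares of 7.69% and 11.5% lay near the 9.81% and 11.5% of all genes tested. HMGCS1, an early enzyme of the pathway, had 14697 and 15576 normalized counts in FM, 7240 and 6898 in EtOH and 20859 and 21371 in DHT. Its level rose in FM (log2 1.10) and with DHT (1.58), and no FM sample overlapped a starved one. TM7SF2, a sterol reductase gene, fell by 1.32. INSIG1, a brake on SREBP processing, had a log2 change of -0.34 and was not called. Without EtOH replicate 1 the list had 6 falls, and without EtOH replicate 2 it had 4 rises and 2 falls.

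Fatty acid genes gave 6 rises and 2 falls among 19 tested. ACSL3, an acyl-CoA synthetase on lipid droplets, had 57252 and 61059 normalized counts in FM and 9374 and 8764 in EtOH (log2 2.71, standard error 0.10). ELOVL7, an elongase gene, rose by 2.74, and both genes are androgen-induced and rose with DHT (2.52 and 2.12). FASN, fatty acid synthase, had 34366 and 29110 in FM, 26506 and 29940 in EtOH and 70835 and 58865 in DHT. Its FM range overlapped the starved one (log2 0.17, adjusted p = 0.385), but with GC offsets its change was 0.66 and was called. It was lower in FM than in DHT by 1.03. SCD, a desaturase gene, had a log2 change of -0.02 and was not called.

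A list of LXR genes, LXR being the oxysterol receptor, fell in 5 of 11 tested cases and rose in none (median log2 -0.58). It held targets and also NR1H3 and NR1H2, which encode LXR itself. ABCA1, which exports cholesterol, had 15.5 and 17.5 normalized counts in FM and 97.1 and 62.7 in EtOH (log2 -2.27, standard error 0.43), and ABCG1 fell by 0.96. SREBF1 (-0.60), NR1H3 (-0.68) and NR1H2 (-0.71) lost their calls without EtOH replicate 2, where 3 members fell, and with GC offsets. Among 16 PPAR targets 1 rose and 2 fell (6.25% and 12.5%), against 9.81% and 11.5% of all genes tested.

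Chaperone genes of the endoplasmic reticulum were near their starved level in FM. Of 33 tested 1 rose and 1 fell (median log2 0.17, and 0.32 without EtOH replicate 2), DHT raised 25 (median 0.77), and 16 were lower in FM than in DHT. HSPA5, the chaperone BiP, had 51811 and 50781 normalized counts in FM, 46509 and 55619 in EtOH and 95879 and 112712 in DHT. The FM samples lay between the starved ones, and both DHT samples were above all of them. The sensor gene ERN1 rose by 1.16, and XBP1, whose mRNA it splices, fell by 0.91. Without EtOH replicate 1 the list had 4 rises and 3 falls, and without EtOH replicate 2 it had 2 rises and 1 fall.

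ATF4 and amino acid stress genes gave 2 rises and 8 falls among 33 tested, with 5 falls without FM replicate 2 and 3 without EtOH replicate 2. DDIT3, the factor CHOP, fell from 636 and 876 to 373 and 310 normalized counts (log2 -1.15), and DDIT4, an inhibitor of mTORC1, fell by 1.62. Glycolysis and hypoxia genes gave 7 rises and 2 falls among 29. LDHA, lactate dehydrogenase A, had 32000 and 33278 in FM against 14727 and 15282 in EtOH (log2 1.12, standard error 0.08) and 15320 and 16610 in DHT, and its FM level was higher than that in DHT by 1.03. VEGFA, the vascular growth factor, fell by 0.66 in FM and rose by 0.88 with DHT. Without FM replicate 2 the FM call of VEGFA was lost. NRF2, glutathione and metallothionein genes gave 1 rise and 7 falls among 27, with 4 falls without EtOH replicate 2, and GCLC, the catalytic subunit of glutathione synthesis, fell from 3412 and 3010 to 1046 and 1060 (log2 -1.61).

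Polyamine and secretory metabolism genes gave 4 rises and 1 fall among 19. ODC1, the first enzyme of polyamine synthesis, had 70885 and 74844 normalized counts in FM, 25033 and 34003 in EtOH and 266546 and 321554 in DHT. It rose in FM (log2 1.30) and further with DHT (3.32), and FM was lower than DHT by 2.01. SMS, spermine synthase, and SAT1, which acetylates polyamines, rose by 1.84 and 1.63, and 22.1% of the words of SMS occur in other genes. SGK1, a kinase induced by steroid receptors, showed the same order, with 390 and 434 in FM, 69.5 and 99.5 in EtOH and 2050 and 1936 in DHT.

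Targets of other nuclear receptors changed in both directions, in short lists of 9 to 16 members tested, so their shares rest on few genes. Of 13 glucocorticoid and progesterone targets 5 rose and 2 fell, among them ZBTB16 (log2 1.56) and the clock gene PER1 (0.94), which are also raised by DHT (2.35 and 1.87). KLF9, a thyroid hormone target, rose by 1.17 in FM and had a log2 change of 0.20 with DHT, not called, while DIO1, the deiodinase gene, fell by 1.75 in FM and by 1.68 with DHT. Of 16 thyroid hormone, retinoid and vitamin D targets 2 rose and 2 fell (12.5% each), near the 9.81% and 11.5% of all genes tested. Of 9 estrogen receptor targets 2 rose and 4 fell, with GREB1, which androgen also induces, up by 1.80. Without FM replicate 2 the estrogen list had 1 rise and 2 falls. Of 10 aryl hydrocarbon receptor targets 2 rose and 3 fell, 1 of each without EtOH replicate 2, 2 and 1 without FM replicate 1 and none and 2 without FM replicate 2. CYP1A1, the classical target, had 71.8 and 67.1 in FM and 96.1 and 80.6 in EtOH and was not called.

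Interferon and antigen presentation genes fell in 9 of 34 tested cases and rose in 1 (median log2 -0.31, and -0.19 without EtOH replicate 1). HLA-B, a class I antigen gene with 29.6% shared words, fell from 1525 and 2328 to 779 and 784 normalized counts (log2 -1.30), ISG15, a ubiquitin-like modifier, fell by 1.59, and IFI6 by 1.37. The starved replicates were far apart in HLA-B and ISG15, with replicate 2 the higher in both. Of 16 neuroendocrine and neuronal genes 3 rose and 4 fell. SYT4, a synaptotagmin gene that LNCaP cells express strongly, fell from 57323 and 59748 to 25014 and 26175 (log2 -1.19, standard error 0.11), and ENO2, the neuronal enolase, fell by 1.73. EZH2, a Polycomb methyltransferase gene, rose by 0.92, and had a log2 change of -0.01 with DHT. SYP, synaptophysin, was called at -0.89 and lost the call whichever single replicate was left out.

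Luminal lineage genes gave 5 rises and 4 falls among 19 tested. KRT8, FOXA1 and HOXB13 had log2 changes of 0.07, 0.03 and -0.09 and were not called, while KRT8 rose with DHT by 1.88. ELF3, an epithelial transcription factor gene, had 487 and 456 normalized counts in FM and 1906 and 2069 in EtOH (log2 -2.08, standard error 0.12), and DPP4, a surface peptidase gene, rose by 1.79. Several markers of other cells were not low, among them the basal integrin gene ITGA6, singled out after its values were seen, at 932 to 1211 normalized counts, and COL1A1, at 438 and 416 in FM and 773 and 724 in EtOH. Their summed level in CPM was 48.5 to 51.1 in FM and 45.1 to 47.6 in EtOH for 10 basal markers, 19.4 to 20.4 and 31.3 to 36.6 for 12 fibroblast and muscle markers, and 10.6 to 11.8 and 10.5 in both for 13 blood and endothelial markers. Of their tested members 1 of 6 rose and 1 fell, 1 of 4 fell and 1 of 3 fell, respectively. The basal rise was lost without FM replicate 1, FM replicate 2 or EtOH replicate 1, and the blood fall without FM replicate 2 or EtOH replicate 1. The fibroblast marker that fell was COL1A1 (log2 -0.81), whose call was lost with GC offsets. ITGB4 (basal) and CD68 (blood) were at 0 in both FM samples, and the part of other cells in the results was not tested.

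Collagen genes, examined as a family after their values were seen, fell in 17 of 29 tested cases and rose in 1, with a median log2 of -1.27. The median was -0.78 without EtOH replicate 1, and 12 members fell without FM replicate 2. COL5A1, a fibrillar chain, had 45.3 and 20.4 normalized counts in FM and 321 and 282 in EtOH (log2 -3.22, standard error 0.29), COL16A1 had 28.7 and 26.3 against 221 and 269 (-3.16), and COL27A1 fell by 2.97. COL6A1 had 1203 and 1010 against 3120 and 3449 (log2 -1.57, standard error 0.13). Its GC content is 63.5%, in the range where FM fell below EtOH over many genes, and with GC offsets its change was -1.08. With these offsets the family had 18 falls and 1 rise, and its median was -0.96. The starved samples were the high ones in each, which the choice of these genes after seeing their values had fixed, so it is no support. DHT lowered 6 of the 29 and raised none, with COL5A1 at -0.34 and COL6A1 at -0.01, neither called, and 10 of 27 were lower in FM than in DHT. The fibroblast marker DCN lay at 1.1 and 2.9 in FM and at 4.8 and 9.0 in EtOH.

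The same change of medium was measured in the KO line, in samples that the control comparison did not use. There 3578 of 18549 genes (19.3%) were called. Called in both lines with the same direction were 2428 genes, 1185 higher and 1243 lower, which is 61.4% of the control calls and 67.9% of the KO calls, and 1 gene was called in opposite directions. Of the control calls 97.5% had the same sign in KO. These genes were selected as changed in control, and the same share over all genes tested was not computed. Across the 18549 genes Pearson's r of the log2 changes was 0.777, where genes are not independent replicates. In KO 54 of 57 G1/S genes and 61 of 61 mitotic genes rose, with medians of 1.34 and 1.21, and 34 of 41 androgen-induced genes rose (median 1.80). Of 33 ER chaperone genes 14 rose in KO (median 0.49), against 1 in control. The difference between the lines was called for 1 of these 33.

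**Figure D5:**
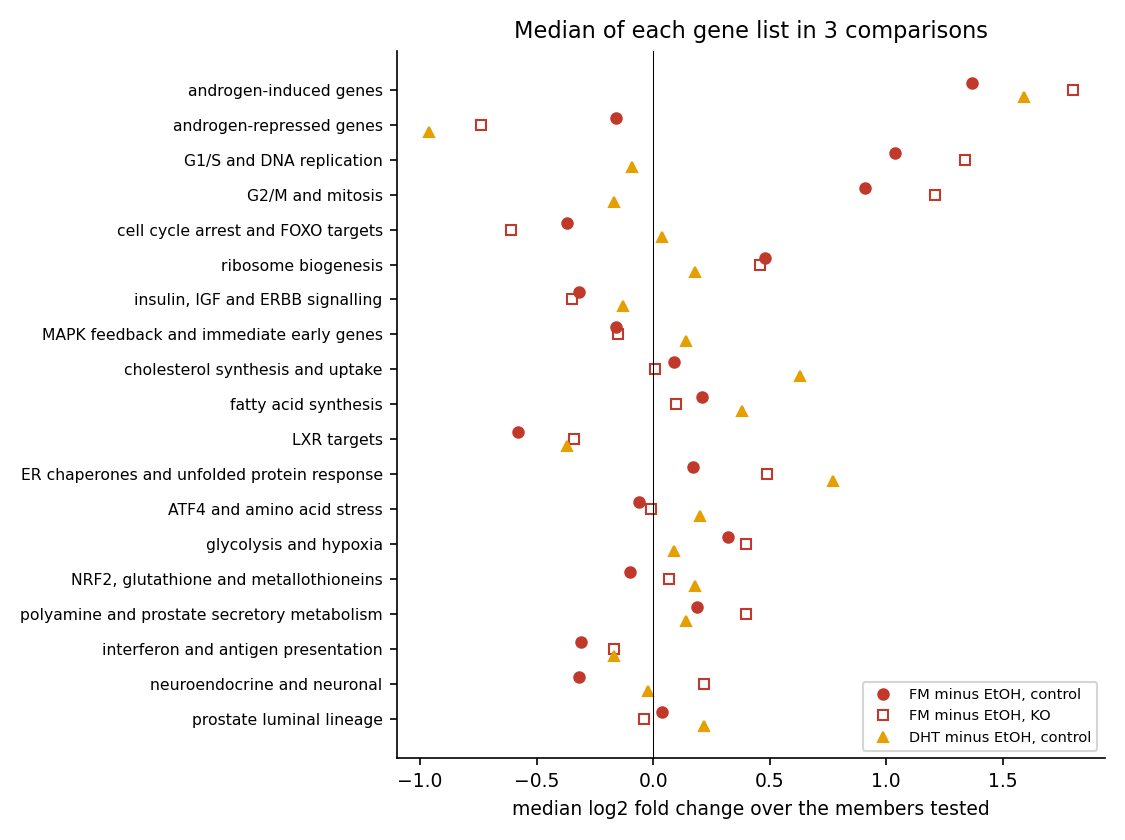
Median log2 fold change (horizontal axis) over the tested members of 19 gene lists for FM against EtOH in control (filled circles), FM against EtOH in KO (open squares) and DHT against EtOH in control (triangles). For the mitosis list the medians are 0.91, 1.21 and -0.17, and for the ER chaperone list 0.17, 0.49 and 0.77.

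A test of the difference between the lines called 180 of 12971 genes (1.39%), so that few single genes of the control response were distinguished from that of KO. UGT2B11 rose more in control (log2 7.19 against 4.65 in KO, difference 2.54, adjusted p = 1.29e-12), where KO had 83.6 and 64.9 normalized counts after starvation. RND3, which encodes an atypical small GTPase, had 382 and 400 in control FM and 86.6 and 90.5 in control EtOH, but 87.7 and 93.2 and 98.3 and 105 in KO (difference 2.32). TNFAIP3, an inhibitor of NF-κB signalling, rose in control (log2 1.42) and not in KO (-0.54, not called), with a difference of 1.96. COLCA1 fell by 0.62 in control, a call lost without EtOH replicate 1 or FM replicate 1, and by 2.96 in KO, and TBX15, a T-box factor gene, rose by 2.78 and 4.73. Of the androgen-induced genes the difference (control minus KO) was called positive for 2 and negative for 12, the latter including TMPRSS2 (difference -1.41) and KLK3 (-0.77). Of the 61 mitotic and 57 G1/S genes it was called negative for 5 and 2 and positive for none. Without EtOH replicate 1 of control the same test called 2124 genes, without EtOH replicate 2 it called 99, and without FM replicates 1 and 2 in turn it called 80 and 49.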

How the data were processed

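Poly(A) RNA libraries were prepared with a stranded kit, sequenced, mapped to GRCh37 and counted per Ensembl gene by the authors, whose processing notes name CASAVA 1.7, TopHat2 2.0.11 and HTSeq 0.5.3p3. The deposited values are raw read counts per gene for 63677 identifiers, with 5 tallies of uncounted reads that were left out (3.55% to 4.58% of reads fell in no gene in the 4 samples). The strand setting and the Ensembl release are not given in the sources used here, so reads from antisense neighbours cannot be told apart. HTSeq tallies reads that overlap several genes or map to several places apart from the gene counts.

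Genes with fewer than 10 counts over the 12 samples were removed, which left 26156. DESeq2 1.42.0 (R 4.3.3) was fitted to all 12 samples with a coefficient per group, and Wald tests were adjusted by Benjamini-Hochberg. The fit took the same spread of a gene for every group, although the control EtOH replicates differed most. A fit without a replicate left a single sample in that group and took the spread from the others. A call kept in such a fit therefore does not show that the replicates agree. Genes without an adjusted p were not counted as tested. Symbols came from GENCODE on GRCh37, and older symbols were resolved through RefSeq synonyms. In a test on simulated data for FM against EtOH in control (25274 genes), DESeq2 recovered 84 of 100 genes changed 2-fold and 99 of 100 changed 4-fold, with 9 false calls, and edgeR 4.0.16 recovered 86 and 99 with 24. The simulation gave a gene the same spread in every group, had no GC trend and changed only genes with a mean of at least 50. It lacked the wider spread of the control EtOH replicates, so its error rates need not hold for the real comparison. Gene counts ranged from 20826843 to 30354666 over the 12 samples, and each group had 2 replicates, described in the series as biological duplicates.

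The gene lists, the genes named and the tests were chosen with earlier results of these data known. Named genes were BAG1, the 10 largest rises and falls with a mean of at least 100 normalized counts and groups that did not overlap, fixed anchors of each list, the 3 largest called changes per list with the same minimum mean, and the 5 largest differences between the lines. Some genes this rule covers are not reported here. Alternatives were edgeR's quasi-likelihood test, TMM factors, other count filters, a fit of only the samples compared, a replicate block, offsets in 20 GC bins, and leaving out each control FM and EtOH replicate.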

Additional observations from a re-analysis of the deposited data

Results flagged for a closer look

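The results below were picked out because the response to full medium differed between the control and KO lines in the test of the difference itself (DESeq2, control minus KO). This test called 180 genes. Among named genes the difference was positive, with a more positive log2 change in control, for UGT2B11 (2.54), COLCA1 (2.34), RND3 (2.32), TNFAIP3 (1.96), UGT2B28 (1.59), UGT2B15 (1.41), PLPPR1 (1.32), UGT2B17 (0.98), THRB (0.85), HMGCS1 (0.79), ACP3 (0.79) and GCLC (0.64). For COLCA1, PLPPR1, ACP3 and GCLC, which fell in both lines, this means a smaller fall in control. It was negative for TBX15 (-1.95), ACTA2 (-1.62), TMPRSS2 (-1.41), RET (-1.31), JUND (-1.02), DDIT4 (-0.88), NR1H3 (-0.85), KLK3 (-0.77) and ELOVL7 (-0.65). RET, JUND and DDIT4 fell further in control than in KO, and TBX15, TMPRSS2, KLK3 and ELOVL7 rose less. The UGT2B genes are neighbours on chromosome 4 that share sequence, so they are not independent of each other. Each group had 2 samples, too few to look for a single sample that stands apart from its group.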

How the results depend on the processing

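The count of genes changed by full medium in control (3956) stayed within 1.5 times under each alternative run, from 2993 without control FM replicate 2 to 4712 without control EtOH replicate 1. It was 3300 in a fit of only the samples compared, 4582 with edgeR and 3918 with a replicate block. The count for the difference between the lines (180) moved to 65 with edgeR, to 281 with the replicate block, and to between 49 and 2124 when a control replicate was left out. Replicate differences of FM and EtOH had correlations across genes of -0.238 in control and -0.266 in KO. These values cannot decide whether equal replicate numbers mark a shared culture. In control the replicate differences moved with GC content in opposite directions (Spearman's rho -0.579 in FM and 0.370 in EtOH). No pair of numbers was tied to a culture, and pairing remains unknown. Of 116 called genes among those named, none changed direction under any alternative run. Many of them were picked as large called changes of this same comparison, some with groups that do not overlap, so this is no support. The GC offsets, with 3446 calls (1343 higher, 2103 lower), cost 9 of the 116 their call. Some genes that were not called changed sign, and the cause was not tested. When a control replicate was left out the log2 change ranged from -0.40 to 0.26 for BAG1, -0.07 to 0.04 for SCD (0.02 without FM replicate 1), -0.42 to 0.08 for EGR1, -0.12 to 0.14 for HSPA5, -0.04 to 0.13 for DNAJB9, -0.17 to 0.05 for ASNS, -0.16 to 0.33 for KRT8 and -0.05 to 0.13 for FOXA1 (-0.00 without FM replicate 2). GC offsets gave -0.13 for HSPA5 and -0.22 for DNAJB9, and a filter of 10 counts in every sample gave -0.02 for HSPA5. GC offsets also brought FASN to 0.66, and leaving out control EtOH replicate 1 brought TOP2A to 0.70, so that both were called. Each group held 2 samples, which limits the precision of every value.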
